A study of Mus musculus with 2 samples.

Results

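Primordial germ cell specification factors are the regulators that set cells of the early mouse embryo on the germ cell path. The 5 genes described here, Prdm1, Prdm14, Tfap2c, Sall4 and Lin28a, were taken by symbol. All 5 were listed in both count tables, out of 17244 genes listed in at least 1 table. They were followed in male germ cells of the fetal testis at embryonic stages E12.5 and E13.5, each of which was represented by a single library. Both groups were male CD1 embryos, an outbred strain, and no treatment is named. Cells were sorted by flow cytometry for Oct4-GFP, a fluorescent reporter of Pou5f1 that germ cells keep at these stages, and profiled by droplet single-cell RNA-seq (10x v2). How many embryos went into each library is not stated in the labels.

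In the embryo, BMP signals induce Prdm1 and Prdm14 in a few epiblast cells, and Tfap2c follows. PRDM1 (BLIMP1) is a zinc finger repressor that silences the somatic mesoderm programme. PRDM14 supports the return of pluripotency genes and the erasure of epigenetic marks, and TFAP2C is the AP-2 gamma transcription factor that acts with them. SALL4 is a zinc finger protein shared with embryonic stem cells that recruits the NuRD corepressor. LIN28A is an RNA-binding protein that blocks the maturation of let-7 microRNAs.

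LIN28A is linked to let-7 in both directions, so the microRNA sequences and the matching sites in the factors' own transcripts are shown first. Mature microRNAs were taken from RefSeq (GRCm38.p6) by the name let-7. These were 8, let-7a to let-7g and let-7i, and all 8 shared the seed GAGGUAG. Family members under other names were not looked for. Below are 3 of them, 5′ to 3′, with the seed (bases 2 to 8) in capitals; they were chosen as a common member, the member with another first base, and a member with a different 3′ end.
mmu-let-7a-5p: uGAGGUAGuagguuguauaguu
mmu-let-7d-5p: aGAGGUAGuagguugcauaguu
mmu-let-7g-5p: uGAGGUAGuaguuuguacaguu

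The longest annotated 3′ UTR of each factor was searched on the mRNA strand for CTACCTC, the letters that pair with that seed. Lin28a held 2 matches in 2775 bases and Sall4 held 1 in 1697 bases, and the following base was A in all 3. The letters were not in the windows of Prdm1 (2490 bases), Prdm14 (803 bases) or Tfap2c (1246 bases). Among UTRs within 20% of the same length, 14.4% held a match at the length of Lin28a and 11.2% at the length of Sall4. A match is a description of sequence and not a measured site. The sites are shown with the pairing letters in capitals, in GRCm38, minus strand of chromosome 4 for Lin28a (chr4:134005187-134005210 and chr4:134004549-134004572) and of chromosome 2 for Sall4 (chr2:168748938-168748961).
Lin28a, first site: cacagcctgttgaaCTACCTCatt
Lin28a, second site: agatcgccacaaacCTACCTCact
Sall4: gggctttaatttatCTACCTCaat

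All 5 factors are annotated as protein-coding genes in GENCODE vM21. Prdm1 lies on chromosome 10 (44437177 to 44528501, minus strand), Prdm14 on chromosome 1 (13113457 to 13127163, minus strand), Tfap2c on chromosome 2 (172549593 to 172558622, plus strand), Sall4 on chromosome 2 (168748332 to 168767943, minus strand) and Lin28a on chromosome 4 (134003330 to 134018841, minus strand). Sall4 and Lin28a each overlap 1 non-coding gene on the other strand at their 5′ end, Gm14261 and Gm13061, and whether counting used strand is not stated.

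Germ-like cells, the barcodes in clusters that carried germ markers and no leading somatic list, were 2498 at E12.5 and 2554 at E13.5. They held 59673637 and 58596390 UMIs, the unique tags that stand for single captured molecules, with medians of 23481 and 21837 UMIs per cell. All 10 germ markers were present in both libraries, with a summed level of 6416 and 7624 CPM (UMIs per 1000000 UMIs of germ-like cells). Summed markers of the somatic lists were between 0.335 CPM (interstitial) and 19.1 CPM (Sertoli) in either library, apart from 3 lists. Endothelial markers stood at 112 and 46.9 CPM, mostly Pecam1, mesonephric markers at 462 and 393 CPM, mostly Epcam, and erythroid markers at 0.285 CPM with 3 of 7 present and 22.4 CPM with 7 of 7 present. Pecam1 alone stood at 77.3 and 25.6 CPM and Epcam alone at 379 and 309 CPM. Markers at 0 in both libraries included Emcn (endothelial), Cdh16 (mesonephric) and Insl3 (fetal Leydig), but other markers of these lists were present. At E12.5 and E13.5, UMIs were found for 7 and 6 of 8 endothelial, 4 and 4 of 5 mesonephric, and 2 and 3 of 6 fetal Leydig markers. The part of these lists in the results below was not tested. A single library stands for each stage, so nothing was tested, differences of stage cannot be told apart from those of library, and every 95% interval covers counting error only.

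The first comparison asked how much of each factor remained at E13.5. The 5 factors differed in how their levels compared: Tfap2c was several-fold lower in the E13.5 library, Prdm14 and Lin28a were moderately lower, Prdm1 was slightly lower and Sall4 did not differ beyond counting error. Because a 3′ assay counts transcript ends, levels can be set side by side without a correction for length, though capture may differ between genes. Sall4 was the most abundant at both stages and Tfap2c moved from second place at E12.5 to last at E13.5.

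Prdm1 had 1657 UMIs at E12.5, or 27.8 CPM (exact Poisson interval 26.4 to 29.1), and 1483 at E13.5, or 25.3 CPM (24.0 to 26.6). Its ratio of the later to the earlier level was 0.911, with an exact conditional binomial interval of 0.849 to 0.978. The intervals of the libraries overlapped, while that of the ratio excluded 1 narrowly. Prdm14, the other PR-domain factor of specification, had 1047 UMIs or 17.5 CPM (16.5 to 18.6) at E12.5 and 662 UMIs or 11.3 CPM (10.5 to 12.2) in the later library. It was 1.55-fold lower (1.41 to 1.71), and its interval spanned the 1.5-fold limit used below. With a stricter filter on cells the value was 1.49-fold.

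Tfap2c showed the greatest fold difference of the 5. It had 2100 UMIs at E12.5, or 35.2 CPM (33.7 to 36.7), and 628 at E13.5, or 10.7 CPM (9.90 to 11.6). The level was 3.28-fold lower at E13.5 (3.002 to 3.60), and the intervals of the libraries were far apart. Only 1.35% of the 7309 genes that reached 10 CPM in a library had a lower ratio.

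Sall4, which is also needed in later spermatogonia, had 5750 UMIs at E12.5 and 5747 at E13.5. These gave 96.4 CPM (93.9 to 98.9) and 98.1 CPM (95.6 to 101), with a ratio of 1.02 (0.981 to 1.06). The interval held 1. Lin28a had 1896 UMIs or 31.8 CPM (30.4 to 33.2) at E12.5 and 1391 UMIs or 23.7 CPM (22.5 to 25.02) at E13.5. It was 1.34-fold lower (1.25 to 1.44), with no overlap of the intervals.

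Of the 5 factors, 2 were at least 1.5-fold lower at E13.5 and none was at least 1.5-fold higher. Among all genes at 10 CPM or more, 9.95% were at least 1.5-fold lower and 8.62% at least 1.5-fold higher. The median log2 ratio of all those genes was -0.022. In order of level at E12.5, Sall4 stood above the other factors, and the intervals of Tfap2c, Lin28a, Prdm1 and Prdm14 did not overlap between neighbours. At E13.5 the intervals of Prdm1 and Lin28a overlapped, as did those of Prdm14 and Tfap2c.

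**Figure D1:**
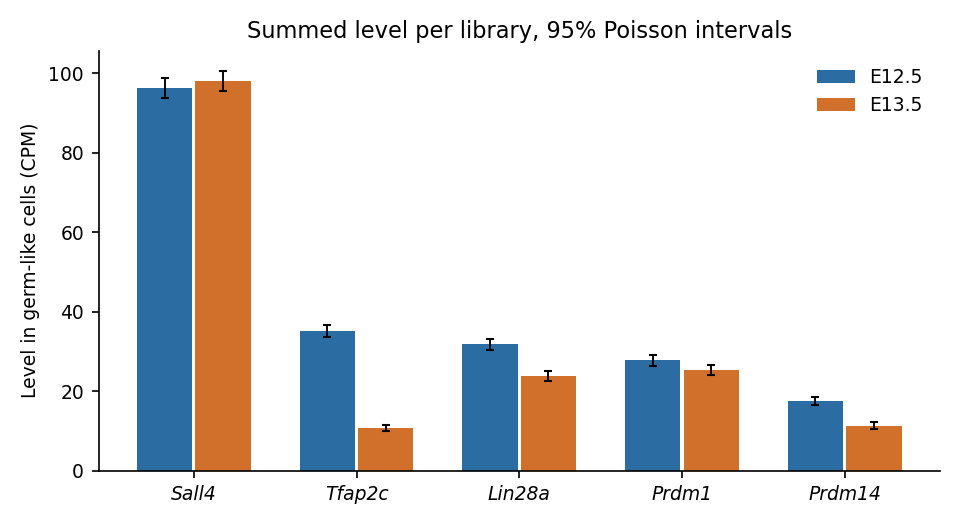
Summed level of each factor in germ-like cells (CPM, linear axis from 0) at E12.5 and E13.5, each bar being 1 library with exact Poisson 95% intervals as error bars. Sall4 stands at 96.4 and 98.1 CPM, while Tfap2c goes from 35.2 to 10.7 CPM.

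The next comparison asked in how many cells each transcript was counted. Shares of cells depend on depth, so each cell was thinned to 14500 UMIs, which 2325 cells at E12.5 and 2323 at E13.5 could give; 173 and 231 cells were too shallow. Differences are in percentage points, E13.5 minus E12.5, with Newcombe 95% intervals.

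Of the earlier cells 765 held Prdm1 (32.9%, with an exact binomial interval of 31.0 to 34.9%), and of the later cells 719 did (31.0%, 29.1 to 32.9%). The difference of -1.95 points (-4.63 to 0.73) did not exclude 0. Prdm14 was counted in 513 cells (22.1%, 20.4 to 23.8%) and 343 cells (14.8%, 13.3 to 16.3%), a difference of -7.30 points (-9.52 to -5.08). Without thinning, Prdm1 was in 45.9% and then 42.0% of cells and Prdm14 in 33.0% and then 22.4%.

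Tfap2c went from 866 cells (37.2%, 35.3 to 39.2%) to 314 cells (13.52%, 12.2 to 14.97%), a difference of -23.7 points (-26.1 to -21.3). Cells with 3 or more Tfap2c UMIs went from 56 (2.41%) to 8 (0.344%). Both the share of carriers and the mean count per carrier were lower, the latter at 1.35 and 1.18 UMIs. Unthinned shares were 51.8% and 19.1%.

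Sall4 was counted in 72.8% (71.0 to 74.6%) and 74.3% (72.5 to 76.1%) of thinned cells, a difference of 1.53 points (-1.01 to 4.06). Lin28a was counted in 34.9% (33.0 to 36.9%) and 28.6% (26.8 to 30.5%), a difference of -6.30 points (-8.96 to -3.62). Unthinned shares were 85.1% and 85.0% for Sall4 and 50.7% and 39.7% for Lin28a. At this depth the difference was widest for Tfap2c, then Prdm14 and Lin28a, while Lin28a stood ahead of Prdm14 when cells were thinned to 5000 UMIs (-3.32 and -2.90 points) or not thinned (-11.1 and -10.6 points).

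**Figure D2:**
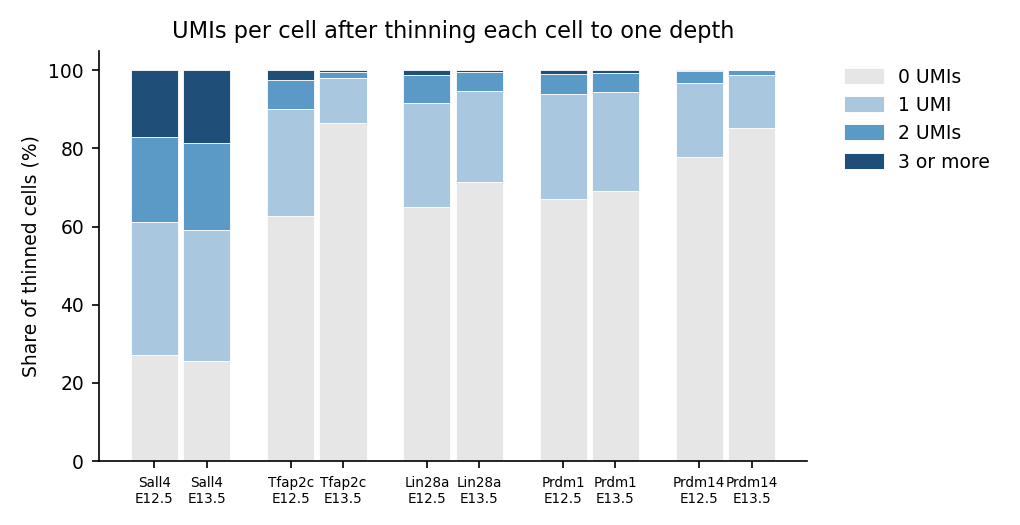
Share of thinned germ-like cells (y axis, %) with 0, 1, 2 or at least 3 UMIs of each factor at each stage (x axis). The grey part, cells with no UMI, is 62.8% and 86.5% for Tfap2c, and 27.2% and 25.7% for Sall4.

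Within a library the spread of thinned counts was described by their variance over the mean, which is 1 for pure sampling. It lay between 1.01 (Prdm14 at E13.5) and 1.19 (Tfap2c at E13.5) for all 5 factors. At low mean counts this ratio stays near 1 even where cells differ in level, so it does not show that cells were alike. The ratio was highest for Tfap2c, at 1.17 and 1.19, and for Sall4, at 1.15 and 1.12. Where cells differ it rises with the mean count, which was highest for Sall4, at 1.38 and 1.44 UMIs per thinned cell. It therefore does not rank the factors by unevenness. The highest count in an unthinned cell was 13 UMIs for Sall4 and 8 for Tfap2c, both at E12.5, and 6 each for Prdm1 and Lin28a and 5 for Prdm14.

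The factors were also counted together. At E12.5 a thinned cell held a UMI of 1.9996 of the 5 factors on average, and at E13.5 of 1.62. All 5 were counted in 23 cells at E12.5 (0.989%) and 5 cells at E13.5 (0.215%), and none of them in 159 cells (6.84%) and 237 cells (10.2%). Over the 10 pairs of factors, the share of cells with one factor differed between carriers and non-carriers of the other by -2.29 to 4.61 points at E12.5 and by -3.49 to 6.03 points at E13.5. The interval excluded 0 for 1 pair in each library, and it was not the same pair. These intervals were not adjusted for the number of pairs. At E12.5 Sall4 was in 76.4% of Prdm14 carriers and 71.8% of non-carriers. At E13.5 Tfap2c was in 18.7% of Prdm14 carriers (64 of 343) and 12.6% of the 1980 non-carriers. With so few UMIs per cell, an absent count does not show that a cell lacked the transcript.

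Free RNA from broken cells can place UMIs in cells that do not express a gene, so the Sertoli-like cluster served as background. At E13.5 its 25 cells (median 10797 UMIs) held none of the 5 factors in 293042 UMIs, which allows up to 10.2 CPM by a limit of 3 counts and up to 12.6 CPM by the exact Poisson interval. The germ-like levels of Sall4, Prdm1 and Lin28a at E13.5 lay above both limits. Prdm14 at 11.3 CPM and Tfap2c at 10.7 CPM lay between them, so by the exact interval the depth of these cells did not set the background below those levels. In the same 25 cells, the abundant germ transcripts Dppa3, Pou5f1, Dazl and Dppa5a stood at 3.40%, 4.39%, 3.498% and 2.06% of their germ-like level. At E12.5 only 4 Sertoli-like cells were present, with 4 Tfap2c, 2 Sall4 and 1 Lin28a UMIs in 73376. Of these 4 cells, 2 held the Tfap2c UMIs and 2 held the 74 Dppa5a UMIs; with so few cells no limit was read from this group. Thinned to 2000 UMIs, none of the 29 Sertoli-like cells of both libraries held any factor, which allows up to 10.3% of cells by a limit of 3 counts and 11.9% by the exact binomial interval, against 1.61% to 17.9% of germ-like cells across the factors and stages; only the Sall4 shares were above these limits.

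The next description followed the factors through the clusters of germ-like cells. Clusters with 50 or more cells of a library were 0, 1 and 4 at E12.5 and 2, 3, 5 and 6 at E13.5. Clusters 0 and 5 had the highest level of the replication histone Hist1h1b in their library, and clusters 4 and 6 that of the mitotic kinase Plk1. Cluster 2 had the highest Nanos2, the RNA-binding protein of male germ cell entry, at 57.7 CPM, and the lowest Mki67, a proliferation marker, at 21.0 CPM. Every gene of these cells could enter the clustering, so the values describe the clusters and are no test.

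Tfap2c was lower in each E13.5 cluster than in each E12.5 cluster. It stood at 30.3, 35.4 and 41.3 CPM in clusters 0, 1 and 4, and at 5.43, 14.4, 13.2 and 10.2 CPM in clusters 2, 3, 5 and 6. Cluster 2, rich in Nanos2, was 2.33-fold lower (1.86 to 2.94) than the other E13.5 clusters. Prdm14 likewise split by stage, with 17.2 to 18.0 CPM in the E12.5 clusters and 8.62 to 12.9 CPM in the E13.5 clusters, and was again lowest in cluster 2, at 1.44-fold lower (1.19 to 1.74) than the others.

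Lin28a went the other way within E13.5. It was highest in cluster 2 at 30.8 CPM (28.2 to 33.6) and lowest in the histone-rich cluster 5 at 17.0 CPM (14.9 to 19.3), with 25.1 and 20.3 CPM in clusters 3 and 6. Cluster 2 was 1.48-fold higher (1.33 to 1.65) than the other E13.5 clusters and lay within the E12.5 range of 27.9 to 35.2 CPM. Prdm1 varied least within E13.5, from 23.5 to 27.4 CPM, and from 25.2 to 30.9 CPM within E12.5. Sall4 was lowest in the histone-rich cluster of each library, at 80.7 CPM in cluster 0 and 90.7 CPM in cluster 5, and reached 109.9 and 111.9 CPM in clusters 1 and 3.

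**Figure D3:**
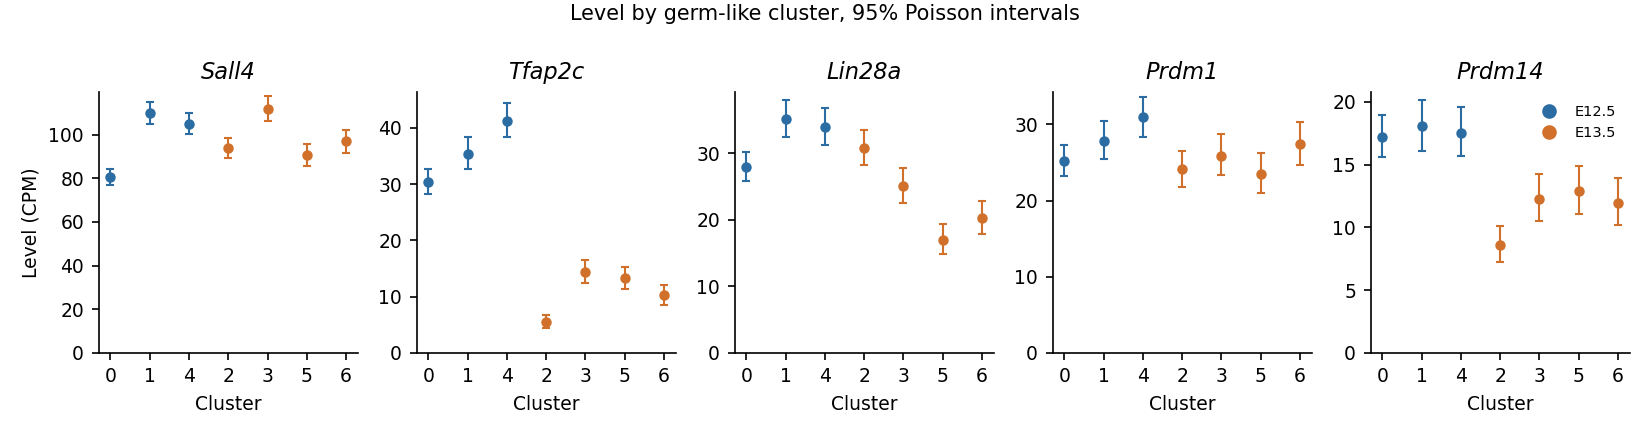
Level of each factor (CPM, y axis from 0) in the germ-like clusters with 50 or more cells, E12.5 clusters in blue and E13.5 clusters in orange, with exact Poisson 95% intervals. Tfap2c and Prdm14 separate the stages and are lowest in cluster 2, where Lin28a has its highest E13.5 value of 30.8 CPM.

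Clusters that led their library in the same cell cycle gene were set side by side across the stages, a pairing chosen after the values were seen. The pairs were not matched for other cell cycle genes. The replication gene Rrm2 stood at 146 and 70.6 CPM in clusters 0 and 5, and at 57.6 and 18.1 CPM in clusters 4 and 6. Between the Hist1h1b-rich clusters 0 and 5, Tfap2c was 2.29-fold lower at E13.5 (1.95 to 2.71), Lin28a 1.64-fold lower (1.41 to 1.91) and Prdm14 1.34-fold lower (1.12 to 1.60). Between the Plk1-rich clusters 4 and 6, these values were 4.04-fold (3.36 to 4.88), 1.67-fold (1.45 to 1.94) and 1.47-fold (1.21 to 1.79). The fold of Lin28a was higher in both pairs than the 1.34 of all germ-like cells, a difference that was not tested. Sall4 was 1.12-fold higher (1.05 to 1.21) in the first pair and 1.08-fold lower (1.01 to 1.16) in the second. Prdm1 had ratios of 0.933 and 0.886 with intervals that held 1.

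Cells were also called by S and G2/M gene scores. In cells called S (876 at E12.5, 419 at E13.5) Tfap2c was 1.95-fold lower (1.63 to 2.34), and in cells called G2/M (1445 and 1744) 3.90-fold lower (3.49 to 4.37). Prdm1 lay on both sides of 1, at 1.17-fold higher in S (1.01 to 1.37) and 1.20-fold lower in G2/M (1.11 to 1.31). Only 4 cells at E12.5 were called G1, so that class was not compared. Of the 1744 G2/M calls at E13.5, 655 lay within 0.05 of a score limit. Cluster 2, with Plk1 at 5.61 CPM, gave 736 thinned cells, more than the 160 G1 and 419 S calls at E13.5 together. Some of its cells were therefore called G2/M, so the G2/M ratios do not compare cells of 1 matched phase. These classes are ranges of a score and not cell types.

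Carriers of a factor at E13.5 were then compared with non-carriers for 4 genes chosen after the values were seen: Nanos2, the X-linked early homeobox gene Rhox9, the stem cell factor receptor Kit and Mki67. Dppa3 was also looked at, but every thinned cell of both libraries held it, so it was left out of the counts below. Nanos2 was counted in 14.97% of the 314 Tfap2c carriers and 28.4% of the 2009 non-carriers, a difference of -13.4 points (-17.5 to -8.63). Rhox9 was counted in 53.2% of Tfap2c carriers and 28.8% of non-carriers, a difference of 24.4 points (18.5 to 30.2). Mki67 (13.9 points, 8.30 to 19.0) and Kit (10.3 points, 5.10 to 15.97) were also more frequent in Tfap2c carriers.

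Prdm14 carriers differed by -8.93 points for Nanos2 (-13.2 to -4.05), 9.58 points for Rhox9 (4.12 to 15.2) and 7.34 points for Kit (2.41 to 12.7). Their interval for Mki67 held 0 (4.13 points, -1.49 to 9.47). Prdm1 carriers had Nanos2 less often by -6.24 points (-9.90 to -2.39). They had Kit more often by 5.51 points (1.78 to 9.37) and Mki67 more often by 4.84 points (0.55 to 9.03). Their interval for Rhox9 held 0 (2.10 points, -1.98 to 6.27). Lin28a carriers had the opposite signs, with Nanos2 in 31.7% of 665 carriers and 24.5% of 1658 non-carriers (7.24 points, 3.21 to 11.4) and Rhox9 at -5.53 points (-9.55 to -1.35). All 4 intervals of Sall4 held 0. Of the 20 comparisons at E13.5, 13 intervals excluded 0, and of the 20 at E12.5, 2 did, both for Mki67 (Prdm1 carriers 3.55 points, Sall4 carriers 3.13 points). At E12.5 Nanos2 was in under 1% of carriers of any factor and Rhox9 in nearly all cells (99.04% of Prdm1 non-carriers), which leaves little room for a difference in those 2 genes. These intervals were not adjusted for the number of comparisons, and the cells share 1 library. The share of such intervals over all genes was not computed, so these counts have no background to be set against. The chosen genes also differed between the E13.5 clusters, with Nanos2 from 9.22 to 57.7 CPM and Mki67 from 21.0 to 166 CPM.

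**Figure D4:**
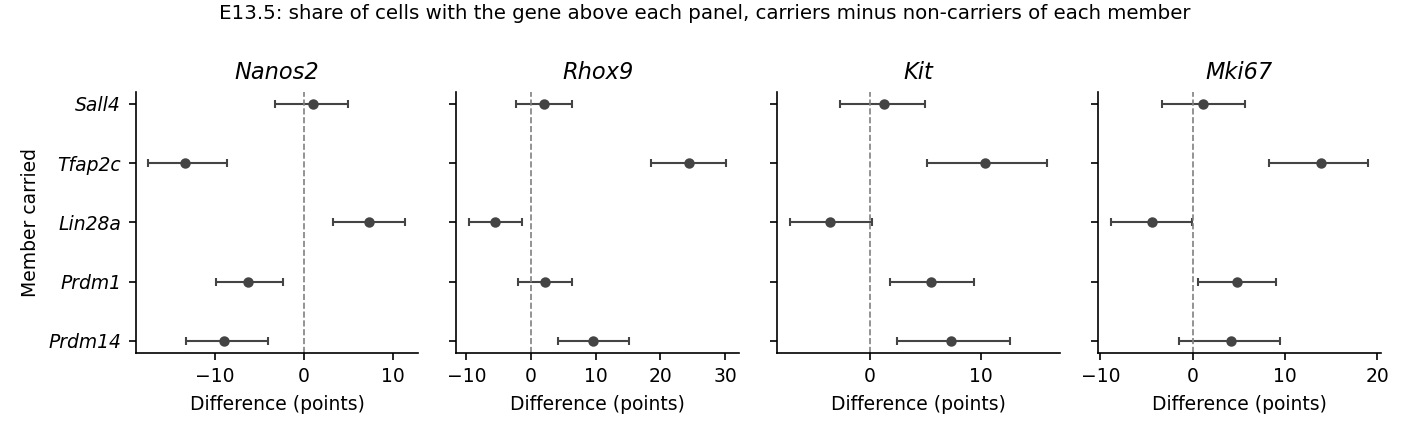
Thinned germ-like cells at E13.5: difference in the share of cells with Nanos2, Rhox9, Kit or Mki67 (x axis, percentage points) between carriers and non-carriers of each factor (y axis), with Newcombe 95% intervals. For Nanos2 and Rhox9 the Tfap2c points lie at -13.4 and 24.4, and the Lin28a points lie on the other side of 0 from them.

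The genes whose level most resembled each factor over the 7 cluster sums were read as a description among 5386 genes at 20 CPM or more, with Pearson's r of log2(CPM + 1). Prdm14 was most like Sntb2, Rhox6 and Kcnk1 (r of 0.999, 0.998 and 0.997), and Tfap2c was most like Polr3e, Sub1 and Ank3 (0.998, 0.997 and 0.996). Lin28a was most like Pcnxl4, Xlr3a and Tnks2 (0.984, 0.983 and 0.969), Prdm1 like Bet1, L3mbtl2 and Gtf3c6 (0.968, 0.963 and 0.957), and Sall4 like Luc7l3, Yipf5 and Zcchc10 (0.977, 0.972 and 0.955). Among the factors themselves, r was 0.984 between Prdm14 and Tfap2c and 0.647 or lower for every other pair. The 7 sums share 2 libraries and are not independent.

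Paralogs of the factors were scarcer than the factors. Of 17 PRDM family genes, 14 were listed in both tables and 5 reached 10 CPM, with a median log2 ratio over all 5 of 0.040. Prdm14 was the only one of the 5 past 1.5-fold, and the other 4 were closer. Of all genes at that level, 18.6% were at least 1.5-fold apart in either direction. Prdm1 was the most abundant. Of 5 AP-2 genes, 3 were listed in both tables and Tfap2c alone reached 10 CPM, while Tfap2a stood at 0.687 and 0.427 CPM. Of the 4 SALL genes, Sall4 and Sall1 reached 10 CPM (median 0.52), and Sall1 was 2.01-fold higher at E13.5 (1.77 to 2.28), at 6.27 and 12.6 CPM. Lin28b stood at 4.61 and 5.24 CPM, with a ratio of 1.14 (0.963 to 1.34). Reads shared between such relatives could blur their separate counts.

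Next came the genes around LIN28A and let-7. Of 10 genes of let-7 maturation, 8 reached 10 CPM, with a median log2 ratio over all 8 of -0.34, and 7 of these differed by less than 1.5-fold. Of all genes at that level, 18.6% were at least 1.5-fold apart in either direction. The eighth was lower: Dgcr8, the RNA-binding partner of Drosha in cutting primary microRNAs, at 66.6 and 30.7 CPM (2.17-fold, 2.05 to 2.30). Drosha itself, the most abundant at E13.5, stood at 55.1 and 68.1 CPM. The terminal uridylyl transferase Zcchc11 (Tut4), which LIN28A recruits to let-7 precursors, stood at 52.2 and 51.8 CPM.

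Among 22 genes known as let-7 targets, 15 reached 10 CPM, of which 1 was at least 1.5-fold higher, 2 were lower and 12 lay in between, with a median of -0.29. Hmga1, a chromatin architectural protein, was 8.16-fold lower (6.97 to 9.59), at 24.5 and 3.004 CPM, and the cell cycle factor E2f2 2.88-fold lower (2.46 to 3.39). Hmga1 has near-identical copies in the genome, so its count is uncertain. The G1 cyclin Ccnd1 was 2.29-fold higher (1.98 to 2.65), at 4.51 and 10.3 CPM. The most abundant, the ubiquitin-conjugating enzyme Cdc34, stood at 231 and 180.1 CPM. Of the 22, 15 held the letters CTACCTC in their longest 3′ UTR and 9 held them with the following A, against 9.02% and 3.06% of 21005 genes with an annotated 3′ UTR. Genes may be known as let-7 targets through such sites, and the lengths of the UTRs were not matched here, so this comparison is no test. Over all genes at 10 CPM or more, the median log2 ratio was -0.046 for the 225 with CTACCTCA, -0.0042 for the 436 with CTACCTC alone and -0.024 for the 6333 with no match. At least 1.5-fold lower were 13.8%, 9.17% and 9.95% of these groups, and at least 1.5-fold higher 9.78%, 8.72% and 8.56%, with no test of the differences.

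Upstream and downstream genes of specification went both ways. A list of 16 genes of the BMP signal to primordial germ cells also held Wnt3 and T, which are not BMP pathway components. Of the 16, 8 reached 10 CPM, of which 1 was at least 1.5-fold higher, 2 were lower and 5 lay in between (median 0.19). Of all genes at that level, 8.62% were at least 1.5-fold higher and 9.95% at least 1.5-fold lower. Id3 and Id1, inhibitors of basic helix-loop-helix factors and direct BMP targets, were 2.62-fold (2.53 to 2.71) and 2.18-fold (1.93 to 2.46) lower. The only higher gene was the WNT ligand Wnt3, at 1.81-fold (1.69 to 1.93), so no BMP ligand, receptor, SMAD or Id gene was in the higher class. Id3 was the most abundant, at 197 and 75.2 CPM. Of 13 early primordial germ cell genes, 12 reached 10 CPM, of which 1 was at least 1.5-fold higher, 3 were lower and 8 lay in between (median -0.19). The higher one was Dppa3 (Stella), the most abundant, at 1.63-fold (1.61 to 1.64). Those lower were the interferon-induced membrane protein gene Ifitm3 (2.55-fold, 2.51 to 2.59), Kit (2.41-fold, 2.24 to 2.59) and the nuclear receptor Esrrb (1.74-fold, 1.56 to 1.93). Ifitm3 has close paralogs, so its separate count is uncertain.

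Partners of the factors were listed apart. Of 16 partner genes, 12 reached 10 CPM, of which 2 were at least 1.5-fold higher, 1 was lower and 9 lay in between (median -0.023). Cited2, an AP-2 coactivator, was 2.79-fold higher (2.56 to 3.05), at 11.7 and 32.8 CPM, and Kctd15, an inhibitor of AP-2 proteins, 3.26-fold lower (2.80 to 3.80), at 12.4 and 3.81 CPM. The Groucho corepressor Tle1 was 1.72-fold higher (1.62 to 1.83). Prmt5, the arginine methyltransferase that binds PRDM1, stood at 79.7 and 81.7 CPM, Cbfa2t2, the corepressor that binds PRDM14, at 35.3 and 28.2 CPM, and the Polycomb methyltransferase Ezh2, the most abundant at E12.5, at 187 and 133 CPM. The histone deacetylase Hdac2, the most abundant at E13.5, stood at 148 and 179.8 CPM. All 11 NuRD genes at 10 CPM lay within 1.5-fold, with a median of -0.16 and the helicase Chd4 the most abundant at 347 and 292 CPM. Of all genes at that level, 9.95% were at least 1.5-fold lower and 8.62% at least 1.5-fold higher, so most genes lay within 1.5-fold.

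Genes that the factors are known to repress were also given. Of 8 genes repressed by PRDM14, 6 reached 10 CPM, with a median over all 6 of 0.046, and 5 of these differed by less than 1.5-fold. Of all genes at that level, 18.6% were at least 1.5-fold apart in either direction. The FGF receptor Fgfr1 was 1.70-fold lower (1.58 to 1.83). The most abundant was the histone methyltransferase Ehmt1, at 47.7 and 43.0 CPM. None of the 8 listed somatic mesoderm genes reached 10 CPM in either library. Fgf8, the highest of them at E12.5, stood at 3.67 and 2.82 CPM. Eomes, the highest at E13.5, stood at 0.888 and 3.05 CPM, and Snai1, which was chosen after its values were seen, at 0.352 and 2.87 CPM.

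**Figure D5:**
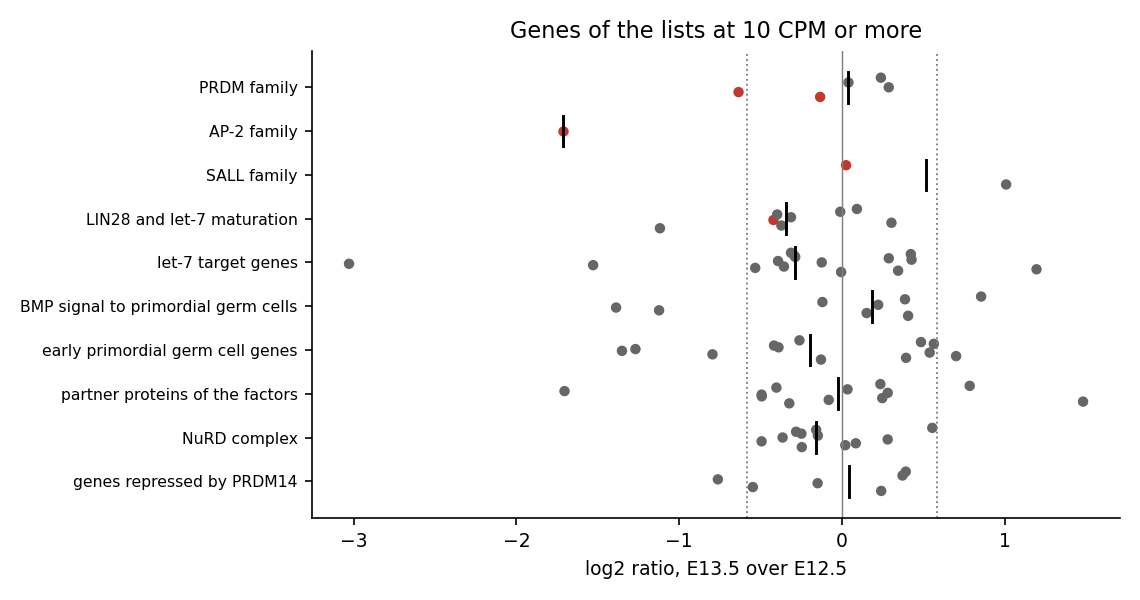
Log2 of the later level divided by the earlier level (x axis) for each gene of the lists that reached 10 CPM in a library, with the list's median as a black bar, the 5 factors in red and dotted lines at 1.5-fold. Tfap2c stands at -1.72, Prdm14 at -0.64, Lin28a at -0.42, Prdm1 at -0.13 and Sall4 at 0.026.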

How the data were processed

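Sorted germ cells were captured as single cells with the 10x v2 kit, per the labels' protocols. The authors deposited raw UMI counts in a gene by barcode table per library. The earlier table had 2847 barcodes and 60383440 UMIs, the later one 2992 barcodes and 59842242 UMIs. Reads had been processed with Cell Ranger on mm10 (GRCm38), per the submitters' processing notes; its version and the gene annotation are not given in the sources used here. The 5 genes and all lists were chosen with earlier results of these data known.

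A barcode needed at least 500 genes and less than 10% of its UMIs from mitochondrial genes (2621 and 2670 passed). Leiden clustering used scanpy 1.11.5 with leidenalg 0.10.2 at resolution 0.5, on 15 neighbours in 30 principal components of 2000 variable genes, and libraries were not integrated. Names came from marker lists that hold none of the 5 factors. One cluster (206 barcodes, median 1897 UMIs) was shallow and was neither named nor used. Where macrophage or erythroid markers took 0.5% of a germ-like barcode's UMIs it was dropped (3 earlier, 1 later), by a limit set after the data were seen. Scrublet called 65 and 27 doublets, which stayed in except in an alternative. The libraries shared 24 barcode sequences, held by 15 and 18 germ-like cells.

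Levels are summed UMIs as CPM. A ratio needed 3 UMIs in each library, and 1.5-fold is a class of size, not a test. The thinning depth is the 10th percentile of UMIs in the shallower library rounded down to 500, drawn without replacement. Phase calls used 43 S and 54 G2/M genes. Of each list, the genes at 10 CPM and at least 1.5-fold apart and the most abundant were named by rule, with the 3 genes most like each factor. Other genes named from the lists were chosen after their values were seen. Interval and thinning code was tested on simulated data. Positions and UTRs are from GENCODE vM21 (GRCm38) and microRNAs from RefSeq. Alternatives were TMM factors (edgeR 4.0.16), other denominators and cell filters, other thinning depths and other minimum levels.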

Additional observations from a re-analysis of the deposited data

How the results depend on the processing

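No paired analysis was possible because each stage has 1 library, and leaving out a replicate was likewise not possible. Each factor's log2 ratio was recomputed with TMM factors, with the 50 most abundant, mitochondrial and ribosomal protein genes taken out of the total, with every barcode, with a stricter filter (at least 2000 genes and under 5% mitochondrial UMIs), with Scrublet's calls removed, with cells weighted equally, with germ cells defined by 3 markers, and, added after the data were seen, without barcodes shared by the libraries. No value changed sign, and 39 of 40 stayed within the counting interval. The exception was Tfap2c at -1.57 (2.96-fold lower) under the stricter filter, which took cluster 2 from 32.3% to 21.4% of the E13.5 cells used; its median mitochondrial share was 5.18%, against 4.33% to 4.57% in the other E13.5 clusters. Over these settings Prdm14 ranged from -0.64 to -0.57, Lin28a from -0.49 to -0.38, Prdm1 from -0.15 to -0.092 and Sall4 from 0.013 to 0.067. Prdm14 fell below the 1.5-fold class only under the stricter filter, at 1.49-fold. The share differences scale with depth by construction: thinned to 5000 UMIs they were -2.90 points for Prdm14, -11.1 for Tfap2c and -3.32 for Lin28a, and with no thinning -10.6, -32.7 and -11.1. Of 66 list counts at other minimum levels (1 or 50 CPM) or a 2-fold class, 25 moved by more than 1.5 times. Depth limits the statements on single cells: 4 of the 5 factors had a mean of 0.159 to 0.502 UMIs per thinned cell.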

Other observations

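The unnamed low-UMI cluster belongs in no comparison above. Haemoglobin genes (Hbb-bs, Hba-a1, Hba-a2, Hbb-y) led it, 6 erythroid markers were at least 4-fold higher there than in the other cells, and all 10 germ markers were detected. It also held UMIs of the factors, and whether these came from free RNA was not tested. Its 116 barcodes at E12.5 (349201 UMIs) had Tfap2c at 28.6 CPM (13.7 to 52.7) and Sall4 at 109 CPM (77.0 to 149). Its 90 barcodes at E13.5 (319121 UMIs) had Tfap2c at 6.27 CPM (0.759 to 22.6) and Sall4 at 94.0 CPM (63.4 to 134). All 5 factors had intervals that held their germ-like level of the same library.

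Among genes under 10 CPM, other regulators of AP-2 proteins were lower at E13.5 than at E12.5. The coactivator Cited4 stood at 2.80 and 0.717 CPM (3.90-fold, 2.77 to 5.62) and the inhibitor Kctd1 at 4.02 and 2.54 CPM. Evx1, a homeobox gene of the early mesoderm, stood at 2.93 and 0.341 CPM. These genes were chosen after their values were seen.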
